A study of Homo sapiens with 18 samples.

Results

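MV4-11 is an established human acute myeloid leukaemia (AML) cell line that carries a *KMT2A* rearrangement and an internal tandem duplication of *FLT3*. The comparison described here is of MV4-11 cells given 50 nM IACS-010759 (IACS), an inhibitor of complex I of the mitochondrial electron transport chain, for 8 h against MV4-11 cells given the vehicle DMSO. It rests on 6 of the 18 RNA sequencing libraries of the study, 3 of each group, chosen by their labels. The other libraries were MV4-11 given 50 nM IACS for 24 h (n = 3) and THP-1, another *KMT2A*-rearranged AML line, with the same 3 groups. The labels do not say whether a DMSO library belongs to 8 h or 24 h, so time in culture and drug cannot be told apart if the times differed. The replicates were described as independent, all of 1 cell line.

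Complex I oxidises NADH and passes its electrons to ubiquinone. When it stops, the inner membrane protease OMA1 can cleave DELE1, a mitochondrial messenger that then activates HRI, 1 of the 4 kinases of the translation factor eIF2α. Phosphorylated eIF2α lowers general protein synthesis and favours translation of *ATF4* mRNA, and the ATF4 protein switches on genes for amino acid synthesis and uptake, tRNA charging and feedback control. This is the integrated stress response (ISR). The first step is post-translational, so RNA sequencing reads mainly its targets.

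The libraries carried the markers of the line. Over the 6 libraries, rescaled TPM (a transcript level corrected for transcript length and library size, here brought to a common scale between libraries) ranged from 59.9 to 72.7 for *CD33*, from 178 to 237 for *FLT3* and from 110 to 126 for *SPI1*. T cell, erythroid, epithelial and fibroblast markers summed to at most 0.287 TPM per list. The B cell list summed to 1.73 to 1.90 TPM in DMSO and 1.47 to 2.20 TPM at 8 h, with *MS4A1* at or near 0. The 8 h replicate 3 stood apart from the other libraries: the 5 most abundant noncoding RNAs held 39.6% of its TPM and 47.3% to 51.9% in the other 5, and its scaling factor was the highest of the 6 (1.18 against 0.90 to 1.01).

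Of 13462 genes tested, 2 rose and 2 fell after 8 h of IACS, by limma with an adjusted p under 0.05 and a change of more than 1.5-fold on the log2(TPM + 1) scale. These are 0.0149% of the genes tested in each direction. The genes that rose were *CHAC1*, an ATF4 target whose product degrades glutathione, and *ARRDC3*, an alpha-arrestin that directs membrane proteins to lysosomes. The genes that fell were *TFRC*, the receptor for iron-loaded transferrin, and *SNORA21*, a small nucleolar RNA that guides pseudouridylation of ribosomal RNA. *SNORA21* reached the mean needed for testing only through the DMSO group, so its place in this count is no support. The median log2 fold change of all genes tested was 0.0046. The median SE was 0.11.

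**Figure D1:**
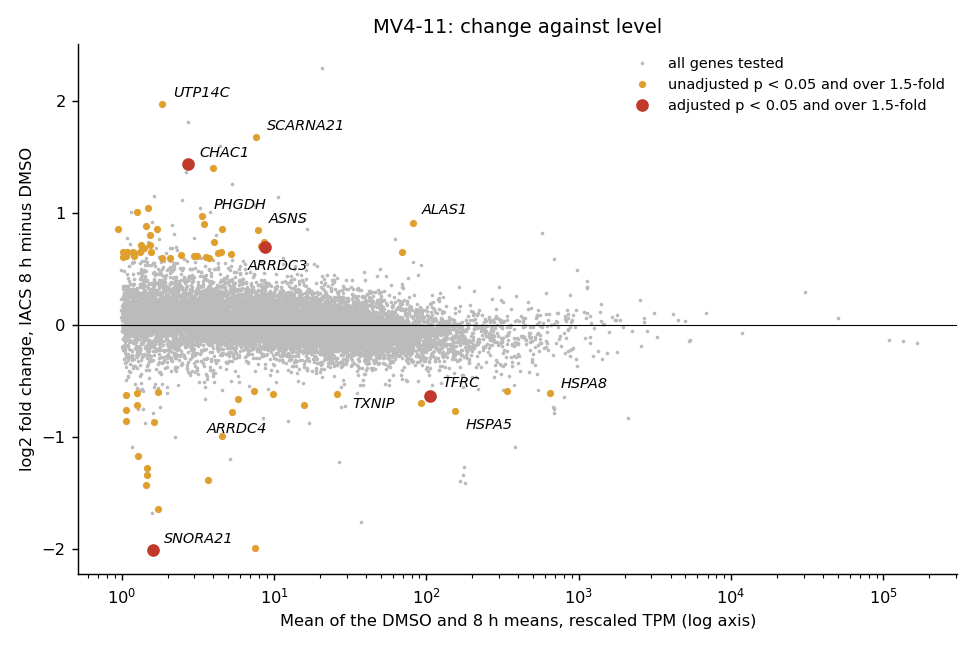
Each point is 1 of the 13462 genes tested, with its log2 fold change (IACS 8 h minus DMSO) against its mean level in rescaled TPM on a log axis. The 4 red points passed the adjusted threshold, the orange points passed only an unadjusted p under 0.05 with the same fold, and most genes lie close to 0.

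*CHAC1* (chr15:40952962-40956512, + strand, GRCh38) was at 0.937, 1.13 and 0.981 TPM in the DMSO libraries and at 5.38, 3.98 and 4.04 TPM in the 8 h libraries. The groups did not overlap, and the ratio of the means was 4.40. The log2 fold change was 1.43 (SE 0.12, 95% interval 1.16 to 1.71, adjusted p by limma 0.0118). *ARRDC3* (chr5:91368631-91383317, − strand) was at 6.17, 5.94 and 7.30 TPM in DMSO and 11.0, 11.7 and 10.5 TPM at 8 h, again without overlap, and its log2 fold change was 0.70 (SE 0.08, adjusted p by limma 0.0417).

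*TFRC* (chr3:196012511-196082153, − strand) stood at 132, 130 and 121 TPM in DMSO and at 83.6, 79.4 and 83.1 TPM at 8 h. All 8 h libraries were below all DMSO libraries, and the gene fell by 0.63 on the log2 scale (SE 0.06, adjusted p by limma 0.0158). *SNORA21* (chr17:38852863-38852994, − strand, inside the *RPL23* gene) was at 5.09, 2.69 and 1.91 TPM in DMSO and was listed at 0 in the 3 libraries of 8 h and the 3 of 24 h. Its adjusted p was 0.0436 by limma, and no fold is given against a group listed at 0. It reached the mean of 1 TPM needed for testing only through the DMSO group, so the filter favoured a difference, and it was not called with no filter or with a pseudocount of 0.1. Reads of *SNORA21* and of its host gene may not be told apart, since the counting rule for strand and overlap was not given in the sources used here.

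The calls depended on single libraries and on the fit. With only the 6 libraries compared in the fit, 0 genes were called, while an unadjusted p under 0.05 by limma held for 864 higher genes and 1131 lower ones. Leaving out DMSO replicate 1, DMSO replicate 2 or 8 h replicate 2 also gave 0 calls by limma, with 556, 431 and 410 genes higher and 737, 470 and 497 lower at an unadjusted p under 0.05. Without 24 h replicate 3, which enters the scaling factors and the estimate of the spread, 15 genes were called, 8 higher and 7 lower. *CHAC1* was called in 12 of 16 alternatives that tested it, *TFRC* in 8 of 17, and *ARRDC3* and *SNORA21* in 5 of 16 each.

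A wider view therefore uses the unadjusted p, which is a description and not a call. With an unadjusted p under 0.05 and a change past 1.5-fold, 44 genes were higher (0.327% of those tested) and 27 lower (0.201%). Without a fold threshold, a rule chosen after the data were seen, 702 were higher (5.21%) and 857 lower (6.37%). These shares are the background for each list below in the main fit. On the TPM as deposited, with no rescaling, the same rule gave 455 higher and 135 lower. The 8 h libraries lay all above the DMSO libraries for 9.98% of the genes tested and all below for 11.1%.

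Genes of the ISR were mostly higher. Of 17 listed transcription factors and feedback genes 15 were tested, 14 had a log2 fold change above 0, 8 were higher at an unadjusted p under 0.05 and 0 were lower. Their median log2 fold change was 0.30. The median of the list relative to the DMSO mean was 0.35, 0.32 and 0.19 in the 8 h libraries and between −0.06 and 0.06 in the DMSO libraries, so every 8 h library lay above every DMSO library.

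*ATF4* itself (chr22:39519695-39522683, + strand) was at 180, 194 and 182 TPM in DMSO and at 236, 231 and 218 TPM at 8 h. The groups did not overlap, and the log2 fold change was 0.30 (SE 0.07, adjusted p by limma 0.226). Its mRNA was already abundant in DMSO. *DDIT3*, which encodes the transcription factor CHOP, was at 14.8, 15.3 and 13.8 TPM in DMSO and 20.1, 19.6 and 26.2 TPM at 8 h (log2 fold change 0.55, SE 0.14, adjusted p by limma 0.236).

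*DDIT4*, whose product REDD1 restrains the growth kinase mTORC1, was the list's closest gene to the threshold after *CHAC1*, at 5.57, 5.88 and 7.35 TPM in DMSO and 11.1, 10.6 and 11.4 TPM at 8 h (log2 fold change 0.73, SE 0.10, adjusted p by limma 0.0549). *SESN2*, another inhibitor of mTORC1, had 4.97, 5.34 and 4.94 TPM in DMSO and 8.92, 7.39 and 7.32 TPM at 8 h (log2 fold change 0.54, adjusted p by limma 0.122). Of 12 mTORC1 inhibitors tested, these were the 2 with an unadjusted p under 0.05. *TRIB3*, a pseudokinase that feeds back on ATF4, had 6.15, 7.27 and 5.53 TPM in DMSO and 14.6, 10.7 and 8.24 TPM at 8 h (log2 fold change 0.71, SE 0.17, adjusted p by limma 0.226). *JDP2*, a bZIP repressor, had a log2 fold change of 0.50. *CEBPB* (0.30) and the eIF2α phosphatase subunit *PPP1R15A* (0.20) had unadjusted p above 0.05 and groups that overlapped.

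Upstream of *ATF4*, few genes of the relay differed at the RNA level. Of 14 tested genes for OMA1, DELE1, the eIF2α kinases, eIF2 and eIF2B, 1 was higher and 1 was lower at that unadjusted p, and the list's median was −0.007. *DELE1* was at 25.4, 25.3 and 28.4 TPM in DMSO and 29.8, 30.8 and 30.6 TPM at 8 h, without overlap (log2 fold change 0.20, 95% interval 0.06 to 0.35, adjusted p by limma 0.311). *EIF2S1*, which encodes eIF2α, was at 48.4, 49.8 and 49.05 TPM in DMSO and 45.6, 39.2 and 40.04 TPM at 8 h (log2 fold change −0.24, adjusted p by limma 0.352).

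*OMA1* had 7.10 ± 0.61 TPM in DMSO and 7.61 ± 0.12 TPM at 8 h (SD, n = 3 each), a log2 fold change of 0.09 with a 95% interval of −0.11 to 0.29. *EIF2AK1*, which encodes HRI, was the most abundant eIF2α kinase, with 44.1 ± 1.3 TPM in DMSO and 41.7 ± 1.0 TPM at 8 h, and its interval was −0.20 to 0.05. The intervals were −0.08 to 0.23 for *EIF2AK3* (PERK), −0.13 to 0.13 for *EIF2AK4* (GCN2) and −0.27 to 0.19 for *EIF2AK2* (PKR). Changes of more than about that size at the RNA level lie outside these intervals, and the assay does not read kinase activity.

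Enzymes of serine and one-carbon synthesis, which feed nucleotide and glutathione synthesis, were divided. Of 10 tested, 5 were higher and 1 was lower at that unadjusted p (median log2 fold change 0.22). *PHGDH*, the first enzyme of serine synthesis, was at 1.93, 2.18 and 1.67 TPM in DMSO and 5.81, 5.49 and 3.20 TPM at 8 h (log2 fold change 0.97, SE 0.17, adjusted p by limma 0.112). *PSAT1*, the next enzyme, had 45.2, 47.7 and 44.3 TPM in DMSO and 73.9, 66.0 and 49.5 TPM at 8 h (log2 fold change 0.44, adjusted p by limma 0.282). For both, 8 h replicate 3 was the lowest of its group. Without that library *PHGDH* passed the adjusted threshold, with a log2 fold change of 1.18. The mitochondrial folate enzymes *ALDH1L2* and *MTHFD2* had log2 fold changes of 0.46 and 0.33, while the cytosolic *MTHFD1* was the member on the lower side, at −0.21.

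Amino acid supply showed the same division between single genes and the rest of the list. *ASNS*, asparagine synthetase, was at 5.02, 6.15 and 4.76 TPM in DMSO and 12.4, 10.4 and 8.36 TPM at 8 h, without overlap (log2 fold change 0.84, SE 0.14, adjusted p by limma 0.103). *PCK2*, mitochondrial phosphoenolpyruvate carboxykinase, was at 5.87, 6.09 and 5.64 TPM in DMSO and 12.7, 12.3 and 6.66 TPM at 8 h (log2 fold change 0.70, adjusted p by limma 0.243). Again 8 h replicate 3 was the lowest of its group, and without it *PCK2* passed the adjusted threshold, with a log2 fold change of 0.97. With the transsulfuration enzymes *CTH* (0.71) and *CBS* (0.50), these were the 4 of 11 tested members with an unadjusted p under 0.05, and the median of the 11 was 0.14. *CTH* (0.91 ± 0.15 TPM in DMSO, 2.14 ± 0.45 TPM at 8 h) reached the mean needed for testing only through the 8 h group, so its place in this count is no support.

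Of 11 amino acid transporters tested, 2 were higher at an unadjusted p under 0.05, and they encode the partners of the cystine importer xCT. *SLC7A11* had 3.36, 3.07 and 1.89 TPM in DMSO and 6.26, 6.25 and 3.54 TPM at 8 h (log2 fold change 0.74, SE 0.31, adjusted p by limma 0.408). *SLC3A2* had a log2 fold change of 0.30. The median of the transporters was 0.02. Cytosolic tRNA synthetases had the same median (0.02 over 19 tested), with *CARS* and *AARS* higher at an unadjusted p under 0.05. *CARS*, the cysteinyl-tRNA synthetase now named *CARS1*, was at 9.72, 8.74 and 8.83 TPM in DMSO and 14.2, 14.2 and 12.6 TPM at 8 h (log2 fold change 0.54, SE 0.08, adjusted p by limma 0.0656). *AARS* had a log2 fold change of 0.21 and groups that overlapped.

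**Figure D2:**
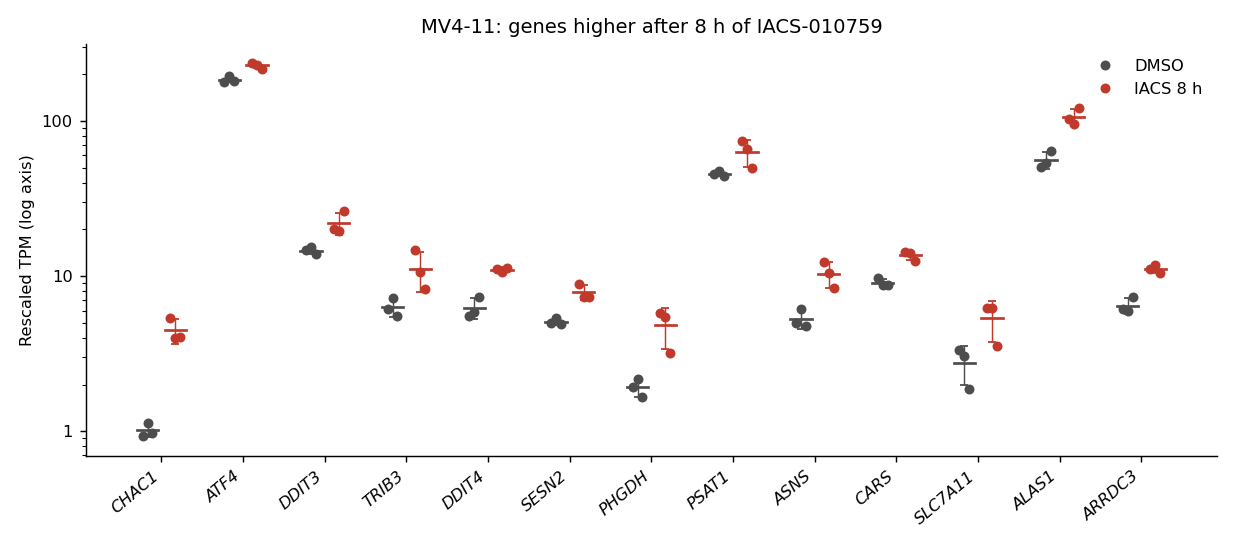
Each point is the rescaled TPM (log axis) of a gene in 1 library, DMSO in grey and IACS 8 h in red, with horizontal lines at the mean of 3 libraries and bars for the SD. For all 13 genes the 3 points of 8 h lie above the 3 of DMSO, with *CHAC1* the furthest apart, and only *CHAC1* and *ARRDC3* passed the adjusted threshold.

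ATF4 binds, with C/EBP partners, the element TGATGNAA. In the promoter windows of RefSeq (GRCh38.p14, from 250 bases before a start to 50 after), searched on both strands, 21 of 56 genes of the 5 ISR lists above (factors, serine, asparagine, transporters, tRNA synthetases) held it (37.5%), against 4.46% of all 27305 genes with a window. The 20 tested members with the element had a median log2 fold change of 0.071, with 6 higher at an unadjusted p under 0.05, and the 33 without it had 0.070, with 12 higher. Among all genes tested with a window, the 215 that hold it had a median of −0.006. A match of letters is not a binding site, and an element further away would not be seen. Shares of this kind, here and for the elements below, rest on the genes listed and use no expression value. They are no support for a response. The windows of *CHAC1* (chr15:40953221-40953520, + strand), *ASNS* (chr7:97872359-97872658, − strand) and *CARS1* (chr11:3057374-3057673, − strand) are shown since these members had large differences and hold the element, in capitals, on either strand.
CHAC1: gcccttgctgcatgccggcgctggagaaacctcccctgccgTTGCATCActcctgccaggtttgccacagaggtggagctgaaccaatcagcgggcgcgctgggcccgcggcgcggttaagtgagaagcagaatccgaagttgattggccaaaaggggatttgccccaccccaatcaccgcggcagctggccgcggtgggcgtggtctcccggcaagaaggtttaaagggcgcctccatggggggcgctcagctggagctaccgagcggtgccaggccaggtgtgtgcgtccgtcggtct
ASNS: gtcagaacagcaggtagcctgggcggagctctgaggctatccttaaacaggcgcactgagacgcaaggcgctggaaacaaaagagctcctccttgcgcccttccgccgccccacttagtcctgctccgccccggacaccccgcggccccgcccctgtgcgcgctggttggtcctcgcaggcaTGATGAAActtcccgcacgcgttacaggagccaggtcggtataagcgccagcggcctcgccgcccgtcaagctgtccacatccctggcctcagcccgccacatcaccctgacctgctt
CARS1: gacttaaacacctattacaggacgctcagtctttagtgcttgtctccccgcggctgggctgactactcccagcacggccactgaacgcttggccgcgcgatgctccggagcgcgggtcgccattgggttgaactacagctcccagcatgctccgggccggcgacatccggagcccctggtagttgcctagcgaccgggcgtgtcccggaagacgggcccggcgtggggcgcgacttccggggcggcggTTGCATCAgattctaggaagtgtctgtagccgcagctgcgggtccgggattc

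Outside these lists, *ALAS1*, the rate-limiting enzyme of heme synthesis, was at 50.7, 53.3 and 63.8 TPM in DMSO and 103, 95.0 and 120 TPM at 8 h (log2 fold change 0.91, SE 0.14, adjusted p by limma 0.0792). Of the 8 heme enzymes tested it was the 1 higher at an unadjusted p under 0.05, and the 1 lower was *CPOX*, a later step, with −0.24. Of 10 genes of iron uptake and storage, *TFRC* was the member called, and *SLC25A37*, the mitochondrial iron importer, was higher at an unadjusted p under 0.05 (0.17).

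*VEGFA*, an angiogenic factor that both ATF4 and hypoxia-inducible factors (HIF) are known to drive, was at 3.62, 3.33 and 3.18 TPM in DMSO and 4.94, 5.08 and 5.54 TPM at 8 h (log2 fold change 0.50, SE 0.08, adjusted p by limma 0.0814). It was the 1 of 12 HIF targets tested with an unadjusted p under 0.05, and the median of the 12 was 0.07. *SAT1*, which acetylates polyamines, had 13.2 ± 1.1 TPM in DMSO and 19.7 ± 1.2 TPM at 8 h (log2 fold change 0.54, adjusted p by limma 0.0588). *STAT2*, a transcription factor of the interferon response, passed the adjusted p (0.0469 by limma) but not the fold threshold, with 41.6, 39.7 and 39.7 TPM in DMSO and 54.0, 55.6 and 55.1 TPM at 8 h (log2 fold change 0.44). *RHOB*, a small GTPase, and *JUN*, a subunit of AP-1, had log2 fold changes of 0.58 and 0.50, without overlap and with adjusted p of 0.204 and 0.199 by limma.

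*UTP14C* was at 0.504, 0 and 0 TPM in DMSO and 2.65, 4.02 and 3.89 TPM at 8 h. Its value is uncertain, because it is a near-identical copy of *UTP14A* and lies within *ALG11*, so the counting could have split reads between them. *SCARNA21*, a guide RNA of Cajal bodies, was at 2.07, 3.20 and 4.22 TPM in DMSO and 10.3, 12.7 and 13.1 TPM at 8 h (log2 fold change 1.68, SE 0.34, adjusted p by limma 0.167). Small RNAs varied widely between libraries: the median of 56 H/ACA small nucleolar RNAs relative to the DMSO mean was 0.52 and 0.30 in the first 2 libraries of 8 h and −0.30 in 8 h replicate 3. Among transcripts named by clone or copy with large differences and no overlap, *SNORA17B_1* had a log2 fold change of 0.65 and *AC104452.1* of 0.63, *Z93241.1* had −0.72 and *AC022384.1* −0.62, and *AL034430.1*, listed at 0 in 1 library of 8 h, is given without a fold.

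Genes for the folding of secreted and membrane proteins were lower. Of 21 ER chaperone and folding genes tested, 13 were lower at an unadjusted p under 0.05 and 0 higher, 18 were below 0, and the median log2 fold change was −0.30. *HSPA5*, which encodes the master ER chaperone BiP, was at 189, 221 and 175 TPM in DMSO and 111, 105 and 125 TPM at 8 h. The groups were far apart, the ratio of means was 0.584 and the log2 fold change was −0.77 (SE 0.11, adjusted p by limma 0.0549).

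*CALR*, calreticulin, had 608, 669 and 679 TPM in DMSO and 469, 415 and 421 TPM at 8 h (log2 fold change −0.58, SE 0.15, adjusted p by limma 0.236). *HSP90B1*, the ER form of HSP90, had 323, 328 and 324 TPM in DMSO and 253, 238 and 241 TPM at 8 h (log2 fold change −0.41, SE 0.07, adjusted p by limma 0.0958). *MANF*, a secreted survival factor of the ER stress response, had 31.2, 34.2 and 29.8 TPM in DMSO and 21.2, 17.8 and 22.2 TPM at 8 h (log2 fold change −0.62, adjusted p by limma 0.231). *SDF2L1*, *PDIA4* and *HYOU1* had log2 fold changes of −0.54, −0.33 and −0.33. *ERN1*, the ER stress sensor IRE1α, was the member with the highest value, at 0.09.

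The ER stress element, CCAAT and CCACG with 9 bases between them, was held by 7 of 20 ER chaperone genes with a window (35.0%), against 0.0916% of all genes with one. The 7 had a median log2 fold change of −0.296, and the 13 tested without it −0.206. The windows of *HSPA5* (chr9:125241294-125241593, − strand), *HSP90B1* (chr12:103930160-103930459, + strand) and *CALR* (chr19:12938359-12938658, + strand) are shown, with both blocks of the element in capitals. They were picked because they had the largest differences among the 7 that hold it, and 0 genes of the list were called. *HSP90B1* holds it once on each strand.
HSPA5: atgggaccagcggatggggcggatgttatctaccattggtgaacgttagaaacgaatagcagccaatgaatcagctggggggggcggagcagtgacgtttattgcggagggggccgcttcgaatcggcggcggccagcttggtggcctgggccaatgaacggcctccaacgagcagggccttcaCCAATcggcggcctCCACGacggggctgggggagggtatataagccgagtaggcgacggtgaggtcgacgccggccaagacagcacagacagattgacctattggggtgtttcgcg
HSP90B1: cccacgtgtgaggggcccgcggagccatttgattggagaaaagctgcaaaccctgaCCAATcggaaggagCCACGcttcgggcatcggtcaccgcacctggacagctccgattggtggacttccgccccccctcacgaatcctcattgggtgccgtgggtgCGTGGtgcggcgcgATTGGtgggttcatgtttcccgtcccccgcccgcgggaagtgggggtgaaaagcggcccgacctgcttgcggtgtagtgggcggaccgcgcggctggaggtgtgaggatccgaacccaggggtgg
CALR: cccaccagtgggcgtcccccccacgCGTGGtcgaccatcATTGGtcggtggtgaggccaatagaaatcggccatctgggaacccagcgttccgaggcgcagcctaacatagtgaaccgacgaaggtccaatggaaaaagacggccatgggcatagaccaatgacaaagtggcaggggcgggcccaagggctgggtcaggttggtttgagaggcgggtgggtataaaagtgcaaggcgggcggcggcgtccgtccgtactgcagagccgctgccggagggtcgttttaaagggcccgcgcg

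Cytosolic heat shock genes showed the same direction. All 12 tested were below 0, 10 of them at an unadjusted p under 0.05, with a median of −0.33. Those 10 include *HSPE1*, a mitochondrial chaperonin gene that is counted again among the mitochondrial chaperones below, so the 2 lists are not separate. *HSPA8*, the constitutive HSP70, was at 801, 819 and 716 TPM in DMSO and 537, 477 and 512 TPM at 8 h (log2 fold change −0.61, SE 0.13, adjusted p by limma 0.186). *HSP90AA1* had 454, 509 and 376 TPM in DMSO and 328, 316 and 273 TPM at 8 h (log2 fold change −0.54), and the HSP70 co-chaperones *DNAJA1* and *HSPH1* had −0.46 and −0.50. The stress-inducible *HSPA1A* had −0.38. The element GAANNTTC of heat shock factors, searched after the data were seen, was in 8 of 12 of these genes (66.7%) and in 8.21% of all genes with a window. The 8 with it had a median log2 fold change of −0.326, with 6 lower at an unadjusted p under 0.05, and the 4 without it −0.334, with 4 lower. The window of *HSPA8* (chr11:123062087-123062386, − strand) holds it at 2 places, in capitals.
HSPA8: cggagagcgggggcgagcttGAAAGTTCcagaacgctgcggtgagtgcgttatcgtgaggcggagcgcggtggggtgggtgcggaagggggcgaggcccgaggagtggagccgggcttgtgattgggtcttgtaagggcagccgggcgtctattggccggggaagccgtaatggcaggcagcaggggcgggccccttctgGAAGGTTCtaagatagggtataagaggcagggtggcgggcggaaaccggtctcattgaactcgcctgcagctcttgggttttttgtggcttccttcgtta

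Mitochondrial chaperones and proteases were lower to a lesser extent, with 4 of 16 at an unadjusted p under 0.05, 0 higher and a median of −0.12. The 2 largest differences were those of the chaperonin pair, *HSPE1* (117 ± 2.7 TPM in DMSO, 87.6 ± 8.6 TPM at 8 h, log2 fold change −0.41) and *HSPD1* (357 ± 14 and 277 ± 24 TPM, −0.37).

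Cholesterol and fatty acid synthesis was lower throughout. All 24 genes tested were below 0, 14 of them at an unadjusted p under 0.05, with a median of −0.30. *SQLE*, squalene epoxidase, was at 44.6, 44.04 and 47.6 TPM in DMSO and 33.2, 30.4 and 29.4 TPM at 8 h (log2 fold change −0.54, SE 0.07, adjusted p by limma 0.0549). *FASN*, fatty acid synthase, had 134, 167 and 139 TPM in DMSO and 108, 104 and 92.7 TPM at 8 h (log2 fold change −0.52, adjusted p by limma 0.126). *DHCR7* and *CYP51A1*, later steps of sterol synthesis, had −0.58 and −0.46, and the desaturase *SCD* had −0.53 with groups that overlapped.

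Genes of the cell cycle were lower by small amounts in nearly every member. All 22 mitosis and spindle genes tested were below 0, 17 at an unadjusted p under 0.05 (median −0.30), and so were all 29 DNA replication genes, 9 of them at that p (median −0.23). *CENPA*, the histone that marks centromeres, passed the adjusted p (0.0158 by limma) without reaching the fold threshold, with 34.8, 34.0 and 34.2 TPM in DMSO and 24.3, 22.6 and 23.5 TPM at 8 h (log2 fold change −0.53, SE 0.05). *MKI67*, the proliferation marker, had 129, 134 and 100.5 TPM in DMSO and 86.8, 89.3 and 86.5 TPM at 8 h (log2 fold change −0.45, adjusted p by limma 0.237). The checkpoint kinase *BUB1B* and the mitotic kinase *PLK1* had −0.33 and −0.38, and the replication genes *PCNA* and *CDC6* −0.37 and −0.32.

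Of 64 replication-dependent histone genes 63 were below 0 and 9 were lower at an unadjusted p under 0.05 (median −0.24), with *HIST1H2AB* at 208 ± 20 TPM in DMSO and 141 ± 10 TPM at 8 h. The 9 became 29 without 24 h replicate 3, 3 without DMSO replicate 3 and 4 with no rescaling. Over all genes tested, 1352, 644 and 135 were lower at that p in those settings. Near-identical copies of histone genes can share reads. A shift of cells out of S phase and mitosis and less RNA per cell in the same phases cannot be told apart in bulk RNA. The element TTTGAA found in many cell cycle promoters, searched after the data were seen, was in 12 of 18 mitosis genes with a window (66.7%) and in 18.2% of all genes. The 12 with it had a median log2 fold change of −0.294, with 9 lower at that p, and the 6 without it −0.304, with 4 lower. *CENPA* (chr2:26785806-26786105, + strand) holds it once.
CENPA: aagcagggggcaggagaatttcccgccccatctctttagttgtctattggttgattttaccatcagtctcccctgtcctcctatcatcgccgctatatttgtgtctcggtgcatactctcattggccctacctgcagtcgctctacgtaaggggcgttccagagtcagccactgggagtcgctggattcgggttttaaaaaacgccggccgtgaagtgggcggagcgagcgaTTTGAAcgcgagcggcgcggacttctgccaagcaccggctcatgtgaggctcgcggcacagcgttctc

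Nucleotide synthesis followed, with 8 of 16 genes lower at an unadjusted p under 0.05, 0 higher and a median of −0.20. *PAICS*, of purine synthesis, was at 98.9, 98.8 and 93.0 TPM in DMSO and 81.8, 77.2 and 72.0 TPM at 8 h (log2 fold change −0.33, adjusted p by limma 0.204). *CAD* and *DHODH*, of pyrimidine synthesis, had −0.24 and −0.19. DHODH passes electrons to the same ubiquinone pool as complex I. Among 19 genes of MYC and ribosome biogenesis 4 were lower and 1 higher at that p (median −0.18), led by the nucleolar protein *NCL*, with 322 ± 24 TPM in DMSO and 233 ± 19 TPM at 8 h. The 1 higher was *UTP14C*, which reached the mean needed for testing only through the 8 h group. The 79 cytosolic ribosomal protein genes had 0 in either direction and a median of 0.04.

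**Figure D3:**
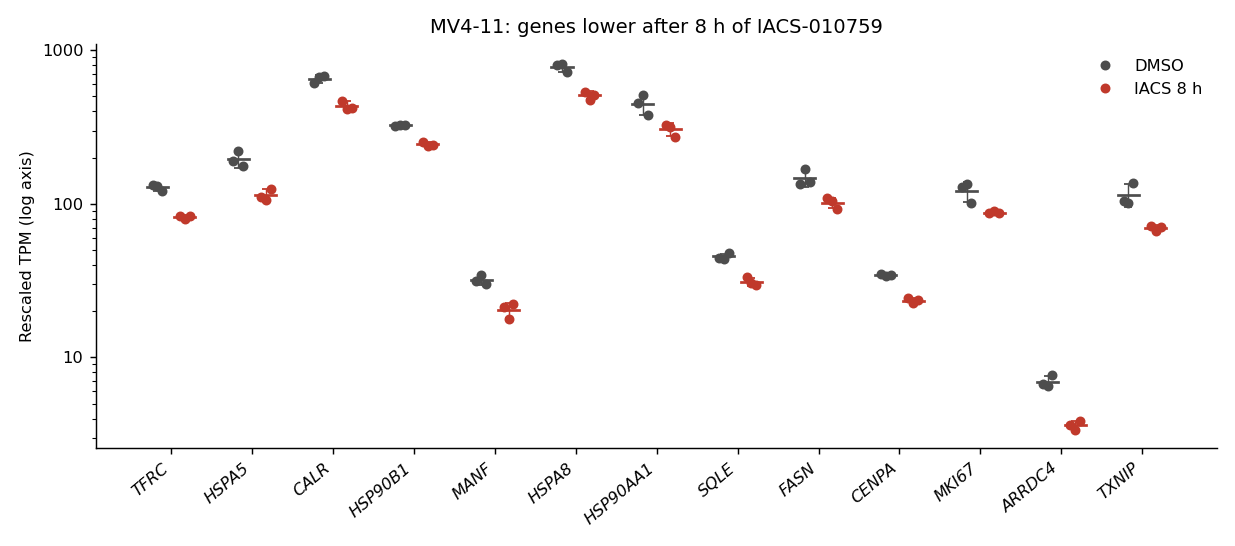
Each point is the rescaled TPM (log axis) of a gene in 1 library, DMSO in grey and IACS 8 h in red, with horizontal lines at the mean of 3 libraries and bars for the SD. The points of 8 h lie below those of DMSO for all 13 genes, of which only *TFRC* passed both the adjusted p and the fold threshold.

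The counts changed in size when each library was left out in turn, and so did those over all genes tested. Of the 13462 genes, 410 to 1080 were higher and 470 to 1352 lower at an unadjusted p under 0.05. The highest counts in both directions came without 24 h replicate 3, so the background of a list differs between these settings. At an unadjusted p under 0.05, the ISR list had 7 to 11 higher of 15, ER chaperones 9 to 15 lower of 21, heat shock genes 6 to 10 of 12, cholesterol and fatty acid synthesis 11 to 19 of 24 and mitosis 11 to 20 of 22. In these 5 lists 0 members passed in the opposite direction. Without 8 h replicate 3 the counts were 11, 11, 10, 11 and 19. DNA replication ranged from 4 without 8 h replicate 3 to 20 of 29 without 24 h replicate 3, nucleotide synthesis from 2 without 8 h replicate 2 to 12 of 16 without 24 h replicate 3, and heat shock genes were at their lowest count without 8 h replicate 2. Mitochondrial chaperones ranged from 2 without DMSO replicate 3 or 8 h replicate 2 to 7 without 24 h replicate 3, and MYC and ribosome biogenesis from 3 to 9 lower, the latter without 24 h replicate 3. With the TPM not rescaled, all 22 mitosis genes were still below 0 but 2 were lower at that p, as were 6 ER chaperones, 5 heat shock genes and 8 of cholesterol and fatty acid synthesis. On that scale 2 DNA replication genes, 1 of nucleotide synthesis, 1 mitochondrial chaperone and 1 of MYC and ribosome biogenesis were lower, and 9 of the ISR list were higher.

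**Figure D4:**
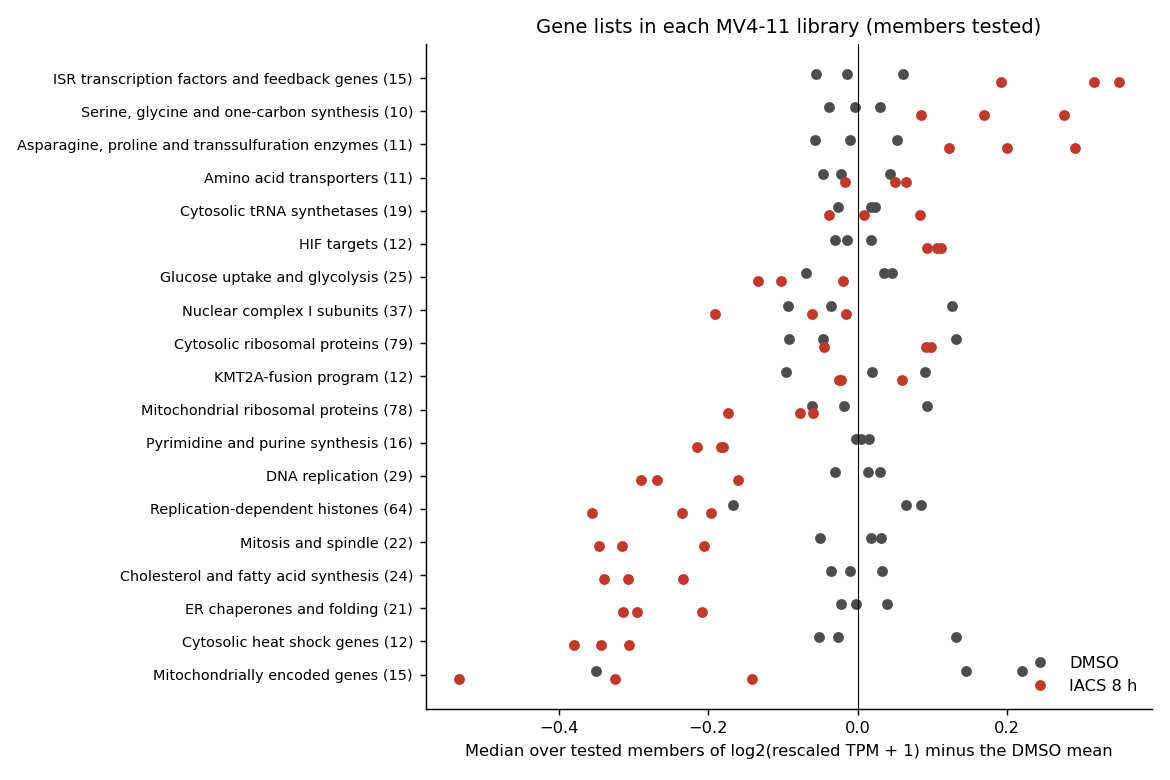
Each point is 1 library, DMSO in grey and IACS 8 h in red, at the median over a list's tested members of log2(rescaled TPM + 1) minus the DMSO mean. The number of members tested follows each list's name. The libraries of 8 h lie to the right of those of DMSO for the ISR list and to the left for heat shock, ER chaperone, cholesterol and mitosis genes, and they overlap for transporters, ribosomal proteins and mitochondrially encoded genes.

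The respiratory chain itself differed little. Of 37 nuclear genes for complex I subunits 1 was lower at an unadjusted p under 0.05 (*NDUFS6*, log2 fold change −0.32) and the median was −0.09. For complexes II to V it was 1 of 38, with a median of −0.04, and for enzymes of the TCA cycle 1 of 19, with −0.02. In these lists 9, 10 and 4 genes were above 0, against 6911 of all 13462 genes tested. With no rescaling 14, 22 and 13 were above 0, against 8983 of all. When each library was left out, 0 to 5 complex I genes were lower at that p. Mitochondrial ribosomal proteins had 8 of 78 lower (19 without 24 h replicate 3, 3 without DMSO replicate 3 or 8 h replicate 2 or 3, and 1 with no rescaling) and a median of −0.10, with *MRPL12* at 103 ± 19 TPM in DMSO and 72.2 ± 8.7 TPM at 8 h (log2 fold change −0.50).

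Mitochondrially encoded genes were lower in median (−0.38 over 15) but with a wide spread between libraries. *MT-ND1*, a complex I subunit, was at 469, 441 and 316 TPM in DMSO and 238, 301 and 264 TPM at 8 h (log2 fold change −0.59, SE 0.20, adjusted p by limma 0.319). *MT-ND2* and *MT-ATP8* had −0.57 and −0.49, and these were the 3 members with an unadjusted p under 0.05. *MT-CO1*, at 4971 ± 965 TPM in DMSO and 5050 ± 572 TPM at 8 h, was the 1 member above 0 (0.04), and it was below 0 without 8 h replicate 2 or without DMSO replicate 3. The ribosomal RNA *MT-RNR1* ranged from 58.4 to 422 TPM within the 8 h group.

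Genes of glycolysis lay close to the background share. Of 25 genes of glucose uptake and glycolysis, 1 was higher and 2 were lower at that unadjusted p, with a median of −0.05. The kinase *PFKFB2*, whose product activates glycolysis, had 4.70 ± 0.56 TPM in DMSO and 6.18 ± 0.17 TPM at 8 h (log2 fold change 0.34), while lactate dehydrogenase *LDHA* had 243 ± 9.3 and 191 ± 14 TPM (−0.35) and the lactate exporter *SLC16A1* had −0.33. The hexokinase gene *HK3* had 0.08, a sign that turned without DMSO replicate 1.

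The alpha-arrestins differed in sign. *ARRDC4* and *TXNIP* are raised by the glucose sensor MondoA and limit glucose uptake, whereas *ARRDC3* rose. *ARRDC4* was at 6.67, 6.50 and 7.66 TPM in DMSO and 3.65, 3.39 and 3.86 TPM at 8 h (log2 fold change −0.78, SE 0.10, adjusted p by limma 0.0549). *TXNIP* was at 105, 102 and 137 TPM in DMSO and 72.2, 66.1 and 70.7 TPM at 8 h (log2 fold change −0.70, SE 0.11, adjusted p by limma 0.0998). The other 4 genes of the list, *ARRDC1*, *ARRDC2*, *MLX* and *MLXIP*, had unadjusted p above 0.05.

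Few genes that decide survival differed. Of 13 BCL-2 family genes tested, 1 was lower at an unadjusted p under 0.05 and 0 higher, and the median was −0.03. When each library was left out, 0 to 1 were lower and 0 to 1 higher at that p. With only the 6 libraries compared in the fit, 0 were lower and 1 higher. *MCL1*, whose product is the target of the BH3 mimetics that the study paired with complex I inhibition, was at 83.0, 86.7 and 85.2 TPM in DMSO and 80.0, 81.0 and 78.1 TPM at 8 h. The groups did not overlap, but the log2 fold change was −0.09 with a 95% interval of −0.21 to 0.03 and the adjusted p was 0.584 by limma. *BCL2L11*, which encodes the BH3-only protein BIM, was the lower gene, at −0.16 (95% interval −0.30 to −0.01). Of other BH3-only genes, *BBC3* (PUMA) had 0.17 (−0.08 to 0.42), *PMAIP1* (NOXA) −0.08 (−0.28 to 0.12) and *BMF* 0.21 (−0.04 to 0.45). *BCL2* had 0.01 with a wider interval (−0.31 to 0.32), and its sign turned when single libraries were left out.

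Genes of leukaemic identity showed few differences. Of 12 genes of the *KMT2A*-fusion program, and of 11 myeloid transcription factors, 0 differed at an unadjusted p under 0.05 by limma, and the medians were 0.02 and −0.03. Among 15 monocyte and granulocyte genes 2 were higher and 1 lower, the last being *S100A8* (22.8 ± 2.0 and 16.9 ± 2.6 TPM). The p53 targets had 2 of 18 higher, *CDKN1A* (log2 fold change 0.19) and *BTG2* (0.22), while *GADD45A* had 0.11 with an interval of −0.24 to 0.47. Targets of NRF2 had 1 of 15 lower, *GCLM* (−0.42), and autophagy and lysosome genes 2 of 21 higher, among them *GABARAPL1* (0.42). FLT3 and STAT5 feedback genes had 2 of 14 lower, immediate early genes 1 of 10 in each direction and NF-κB targets 1 of 11 higher. Hosts of small nucleolar RNAs had 3 of 14 higher, H/ACA small nucleolar RNAs 3 higher and 1 lower of 56, C/D ones 1 of 27 lower, Cajal body RNAs 2 of 13 higher, and the 5 abundant noncoding RNAs 0. Of these, 1 higher and 1 lower H/ACA RNA and the C/D RNA reached the mean needed for testing only through 1 group. When each library was left out, 0 to 3 p53 targets and 0 to 2 monocyte and granulocyte genes were higher at that unadjusted p. The ranges were 1 to 4 for hosts of small nucleolar RNAs and 1 to 10 for H/ACA RNAs. With no rescaling, 0 p53 targets were higher. The 30 tested transcripts that the study took into its CRISPR library had 22 higher (*CTH* and *UTP14C* among them) and 5 lower, but they were chosen by the study on these samples, so their direction is no independent evidence.

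Whether the changes went on was tested directly between 24 h and 8 h of IACS, since both were set against the same DMSO libraries. By limma, 0 of 13462 genes were called (0%), and 48 (0.357%), 14 higher and 34 lower at 24 h, had a change past 1.5-fold and an unadjusted p under 0.05. *CHAC1* was at 4.47 ± 0.79 TPM at 8 h and 3.08 ± 0.32 TPM at 24 h, a difference of −0.42 (log2, SE 0.12, adjusted p by limma 0.71). *TRIB3* was at 11.2 ± 3.2 and 7.08 ± 0.62 TPM (difference −0.56) and *PSAT1* at 63.1 ± 12 and 44.7 ± 2.9 TPM (−0.47), the latter close to its DMSO level of 45.8 ± 1.8 TPM. *PHGDH* was at 4.83 ± 1.4 and 4.72 ± 0.32 TPM and *ARRDC3* at 11.1 ± 0.6 and 12.3 ± 0.2 TPM.

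In the list of cholesterol and fatty acid synthesis all 24 genes had higher values at 24 h than at 8 h, 15 of them at an unadjusted p under 0.05 and 0 lower at that p, with a median difference of 0.29 on the log2 scale and 0 called. Of all genes tested 3.15% were higher and 2.63% lower at that p, and the median was −0.007. Other lists were also uniform in sign: all 15 mitochondrially encoded genes (median 0.32) and all 22 mitosis genes (median 0.09) had higher values at 24 h. In the ISR list 4 of 15 genes, and of serine and one-carbon synthesis 4 of 10, were lower at that p and 0 higher. This comparison and that with DMSO share the 8 h libraries, so the lower values at 8 h enter both. *DHCR7* was at 3.45 ± 0.58 TPM at 8 h and 5.69 ± 0.43 TPM at 24 h, against 5.63 ± 0.17 TPM in DMSO (24 h minus 8 h 0.59 on the log2 scale, SE 0.11, adjusted p by limma 0.64). *CYP51A1* was at 20.7 ± 1.7 and 27.05 ± 1.7 TPM, against 28.8 ± 1.5 TPM in DMSO (0.37, same adjusted p). *HSPA5* was at 114 ± 11 and 108 ± 7 TPM and *TFRC* at 82.0 ± 2.3 and 90.1 ± 1.8 TPM, both still below every DMSO library.

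THP-1 cells, given the same dose for the same time, allow a test of whether the response differed between cell lines. By limma's interaction over 12513 genes, 0 differences were called (0%), and 84 (0.671%) had a difference past 1.5-fold and an unadjusted p under 0.05, 67 of them with a more positive change in MV4-11. The nearest was *TXNIP*, with a log2 fold change of −2.48 in THP-1 and a difference of 1.79 (SE 0.26, adjusted p by limma 0.0562). *ARRDC3* had 0.11 in THP-1 (difference 0.58, adjusted p = 0.33) and *TFRC* −0.12 (difference −0.52, adjusted p = 0.88). *SNORA21*, which fell in MV4-11, had 1.35 in THP-1 with a wide SE of 0.85, and the adjusted p of its difference was 0.88 by limma. *CHAC1* had 1.24 in THP-1, with a difference of 0.17 (SE 0.29), *ASNS* 0.93 (difference −0.09) and *ATF4* 0.51 (difference −0.21). *HSPA5* and *HSPA8* had −0.28 and −0.10 in THP-1, with differences of −0.48 and −0.51, both at an adjusted p of 0.88.

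**Figure D5:**
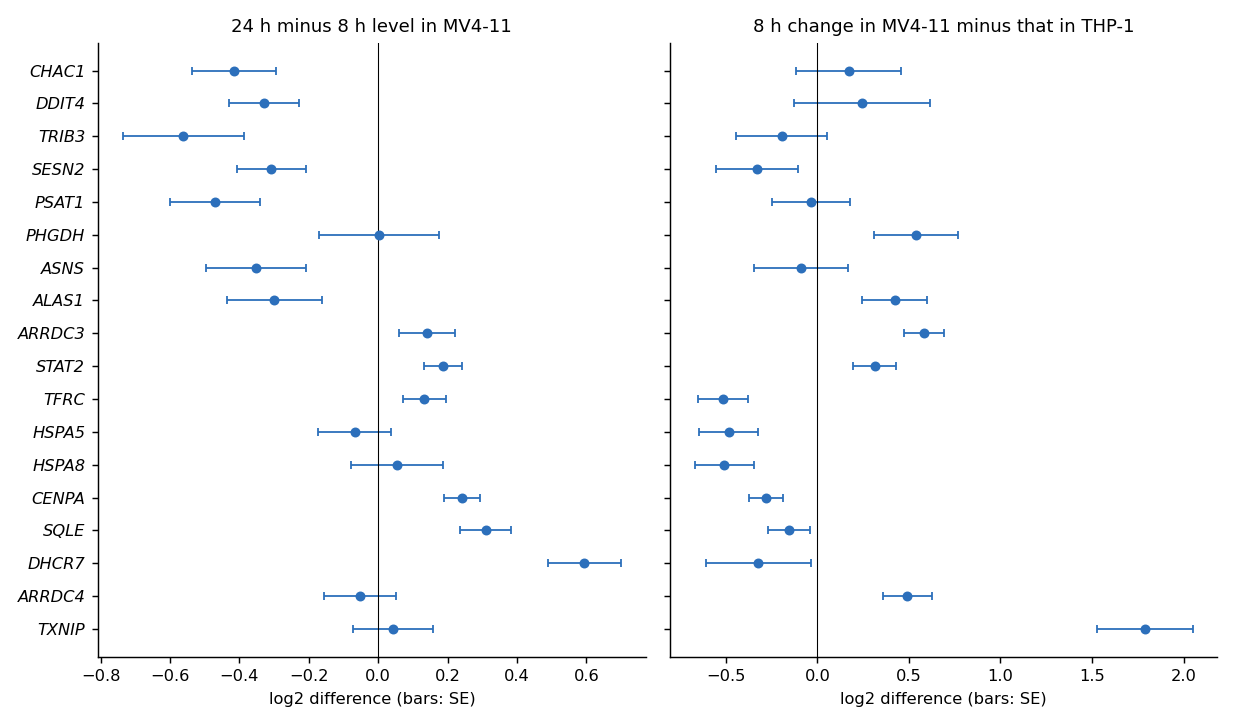
Points are log2 differences with bars for the SE: left, the level at 24 h minus that at 8 h of IACS in MV4-11, and right, the 8 h change in MV4-11 minus that in THP-1. *DHCR7* lies furthest right on the left panel and *TXNIP* on the right panel, and 0 of these differences passed the adjusted threshold.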

How the data were processed

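The deposited values are TPM for 45372 gene symbols, computed by the authors. As their methods describe, total RNA was made into libraries with the TruSeq RNA Sample Prep kit and sequenced as paired-end reads. Reads were trimmed, aligned to GRCh38 and quantified in CLC Genomics Workbench. The annotation release was not given in the sources used here. No step of RNA selection was described, so how fully small noncoding and histone RNAs were captured is unknown. TPM keep no read depth, so depth is unknown and no counting interval is given. Libraries were rescaled by the median of ratios, because 5 noncoding RNAs (RN7SL1, RN7SL2, RN7SK, RMRP, RPPH1) held 39.6% to 51.9% of the TPM in the 6 libraries compared. The 13462 genes averaging 1 TPM or more over these 6 were tested on log2(TPM + 1) by limma 3.58.1 in R 4.3.3 (lmFit, then eBayes with trend). The 9 MV4-11 libraries were fitted together, with Benjamini-Hochberg adjustment over all these genes. The 24 h libraries enter the scaling factors and the estimate of the spread. The steps were tested on simulated data with noise drawn independently for each gene and library, so shifts shared within a library were not covered. A call needs an adjusted p under 0.05 and a 1.5-fold change on that scale. Coordinates are from GENCODE 44 (GRCh38), matched by symbol. The genes and lists described, and the tests, were chosen with earlier results of these data known. Named genes are the called genes, the 10 largest rises and falls above a mean of 5 TPM with an unadjusted p under 0.05 and no overlap, up to 3 members at each end of each list, the relay from OMA1 to ATF4, the line's markers and the BCL-2 family; a few other members were named after their values were seen. The alternatives tried were scaling, pseudocount, filter, libraries fitted, variance trend, replicate block, call rule and leaving out each library.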

Additional observations from a re-analysis of the deposited data

How the results depend on the processing

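The count of genes called between 8 h of IACS and DMSO (4) was 2 without rescaling, 2 with a mean of at least 10 TPM, 0 with only the 6 libraries compared, and between 0 and 15 when each library was left out. It was 71 at an unadjusted p with the fold threshold, 60 by groups not overlapping with that fold, and 1559 at an unadjusted p with no fold threshold, which was added after seeing the data. The count between 24 h and 8 h was 48 at an unadjusted p with the fold. The count for the difference between cell lines was 1 without rescaling, 0 to 2 when each library was left out, and 84 at an unadjusted p with the fold. Same-numbered DMSO and 8 h libraries had deviations correlated at 0.008, 0.086 and 0.197. The values were 0.286, 0.076 and 0.463 for DMSO with 24 h, and 0.092, 0.414 and 0.424 for 8 h with 24 h. Libraries of different number ranged from −0.508 to 0.383. The main fit took the numbers as not pairing the libraries, though every same-numbered value was above 0. With a replicate block 4 genes were called (*CHAC1*, *TFRC*, *ALAS1*, *ARRDC4*), and 1 for the difference between cell lines. That block gave 1060 higher and 1198 lower genes at an unadjusted p under 0.05 by limma, against 702 and 857 without it. *EIF2AK2* turned to 0.0060 without rescaling and ranged from −0.1185 to 0.0234 when each library was left out. *EIF2AK4* was −0.0107 with no filter and 0.0000 with only the 6 libraries, and ranged from −0.0287 to 0.0367. *BCL2* was −0.0056 with no filter and ranged from −0.0901 to 0.0956, *MT-CO1* from −0.1363 to 0.1328, *HK3* from −0.0478 to 0.1795 and *GADD45A* from −0.0006 to 0.2916. The cause of these shifts was not tested. Depth is unknown, and 3 libraries a group limit what the comparison resolves.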
